A study of Mus musculus with 6 samples.

Results

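CD8 T cells are the cytotoxic arm of the T lymphocytes, and in the dispersed islets of this study they were found as 622 of the 43445 barcodes in 6 single-cell RNA-seq libraries. A barcode was taken as a CD8 T cell, chosen by its own UMI counts, when it held at least 500 genes, at most 10% mitochondrial UMIs, less than 25% insulin UMIs (Ins1 and Ins2), at least 2 UMIs of the CD3 genes Cd3d, Cd3e and Cd3g, at least 1 UMI of the CD8 genes Cd8a and Cd8b1, and no UMI of Cd4, Cd79a or Cxcr6. A UMI is a molecular tag that counts each captured RNA molecule once. The members were selected on these genes, so their values are given only as a description.

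A CD8 T cell recognises peptides held by MHC class I through its T cell receptor, which signals through the CD3 chains, while the CD8 co-receptor, a pair of chains encoded by Cd8a and Cd8b1, binds MHC class I itself. Naive CD8 T cells recirculate between blood and lymphoid tissue under the control of Klf2, Ccr7 and S1pr1, and carry the transcription factors Lef1 and Tcf7. Memory and effector cells gain chemokines such as Ccl5, receptors of the NK family such as Klrd1, and granule proteins such as Nkg7, granzymes and perforin. In the islet, CD8 T cells are best known as the cells that kill β cells in autoimmune diabetes, whereas islets of mice without that disease hold few lymphocytes.

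The study compared islets of mice with 14-3-3ζ deleted in β cells (KO; Ins1-CreThor bred to alleles with loxP sites around exon 4 of Ywhaz) with islets of WT mice, which the study describes as littermates that carry Cre, all on a C57/BL6 background (C57BL/6J in the study's methods) and 12 to 14 weeks of age, with 3 libraries per genotype. The labels give no agent for these samples. The Cre is driven by the Ins1 locus, so it acts in β cells and not by design in T cells. About 9600 dispersed cells were loaded per sample for a planned 6000. Each library is called here by its genotype and replicate number. With 3 mice per genotype in the study's design, each library is taken as 1 mouse. P-values are meant to measure the spread between these libraries, with a limit stated below for genes of the interaction test.

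The libraries held 4400 to 10722 barcodes and 74083947 to 98294915 UMIs each. No barcode sequence was shared between members of different libraries, and 4 members had a barcode sequence that also occurred in another library. The members were spread very unevenly. WT 1 held 34, WT 2 held 128 and WT 3 held 2, whereas KO 1 held 1, KO 2 held 427 and KO 3 held 30. WT 3 and KO 1 thus gave next to no CD8 T cells, and KO 2 gave most of them.

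Among barcodes that passed the gene, mitochondrial and insulin filters, the CD8 T share was 3.15% in WT 1, 3.91% in WT 2 and 0.159% in WT 3, and it was 0.0808% in KO 1, 10.3% in KO 2 and 2.54% in KO 3. The groups overlapped, since the lowest and the highest libraries were both KO. The mean share was 2.41% ± 1.98 (SD, n = 3) in WT and 4.30% ± 5.33 (SD, n = 3) in KO, a difference of 1.90 percentage points that was smaller than the spread between libraries (exact 2-sided permutation p = 0.9, where 0.1 is the smallest p that 3 against 3 allows). KO 2 set the direction: without it the difference was -1.09 percentage points (exact permutation p = 0.4). B cells moved with the CD8 T cells, with shares of 20.3%, 45.2% and 4.30% in the WT libraries and 2.59%, 33.6% and 8.64% in the KO libraries. Their part in the result was not tested.

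Set against the other T cells, the CD8 T cells were less uneven. Of the barcodes with at least 2 CD3 UMIs and no Cd79a, they made up 30.1%, 26.9% and 25% in the WT libraries and 9.09%, 39.2% and 40% in the KO libraries. Of the CD8 and CD4 T cells together, counting barcodes with a Cd4 UMI and no CD8 UMI as CD4 T cells, CD8 T cells were 58.6% in WT 1, 55.7% in WT 2, 69.2% in KO 2 and 75.0% in KO 3. WT 3 and KO 1, with 2 and 4 such barcodes, were at 100% and 25% and were left out of the first comparison. Both remaining KO libraries were above both remaining WT libraries, with means of 72.1% ± 4.10 (SD, n = 2) and 57.1% ± 2.10 (SD, n = 2), and the exact permutation p was 0.333, the smallest that 2 against 2 allows, so this comparison could not reach 0.05. With all 6 libraries the order turned, at 56.4% ± 27.3 (SD, n = 3) in KO and 71.4% ± 24.8 (SD, n = 3) in WT (exact permutation p = 0.6).

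**Figure D1:**
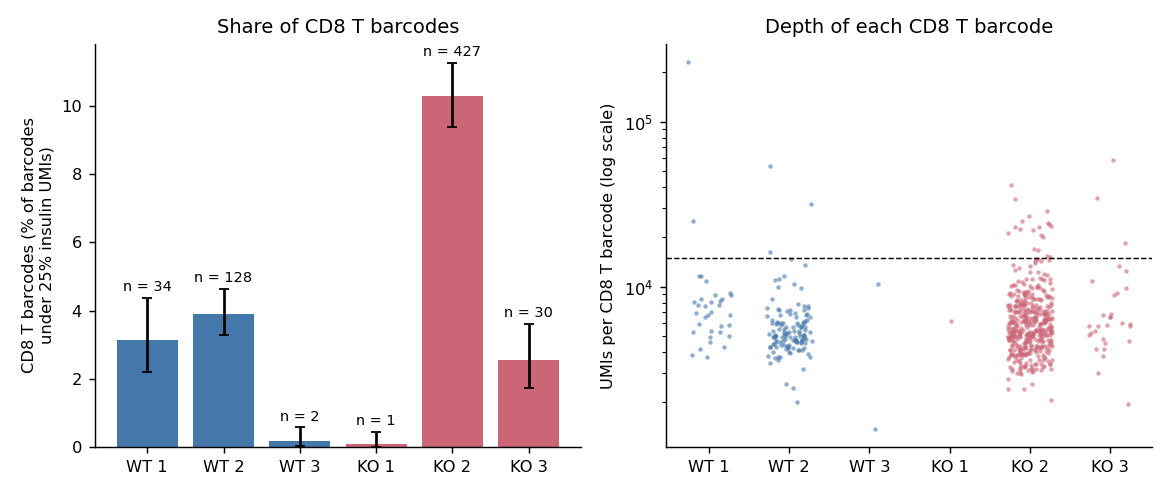
Left, CD8 T barcodes as a percentage of the low-insulin barcodes that passed the filters in each of the 6 libraries, with exact 95% binomial intervals that cover counting error only and the number of members above each bar. Right, UMIs of each CD8 T barcode by library on a log axis, with a dashed line at 15000 UMIs. KO 2 reached 10.3% with 427 members, WT 3 and KO 1 held 2 and 1 members, and 1 barcode of WT 1 lay far above all others at 230043 UMIs.

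The members held a median of 5637.5 UMIs and 1779.5 genes, and the medians per library ran from 5116 to 6980 UMIs. A few members stood apart. In all, 27 members held more than 15000 UMIs, and they carried 53.3% of the CD8 T UMIs of WT 1, 12.7% of WT 2, 15.1% of KO 2 and 39.2% of KO 3. In WT 1, 1 barcode with 230043 UMIs gave 48.1% of that library's sum. Counts of called genes and the main differences on summed counts are therefore given with these barcodes and without them. The limit of 15000 UMIs was chosen after the data were seen.

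At the edges of the rule, 101 members had exactly 1 CD8 UMI and 521 had 2 or more, and 20 had exactly 2 CD3 UMIs. Just outside, 557 barcodes met every other condition but had no CD8 UMI. Another 129 failed only through a Cxcr6 UMI, 55 only through a Cd79a UMI and 23 only through a Cd4 UMI. A further 73 barcodes failed only on insulin, 67 of them in KO 2. All 87 members with 20% to 25% insulin UMIs came from KO 2. The insulin RNA in T cells varied by library, with medians of 1.03% in WT 1, 7.85% in WT 2, 10.8% in KO 2 and 5.87% in KO 3.

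The markers that the rule did not use were more frequent in the CD8 T cells than in the CD4 T and B cells. Each barcode was drawn down to 1500 UMIs, which kept 621 of the 622 members. This puts all cell types at equal total UMIs, in which RNA of other cells is counted too. Ms4a4b, a T cell membrane protein, then had a UMI in 69.4% of the CD8 T cells (exact 95% binomial interval 65.6% to 73.0%, for counting error only) against 49.8% of the CD4 T cells and 1.98% of the B cells. Nkg7, a cytotoxic granule protein, was seen in 31.4% (27.8% to 35.2%) against 4.26% of CD4 T cells and 0.0915% of B cells, and Klrd1 (CD94, an NK-family receptor that also marks CD8 T cells) in 27.4% against 2.13% and 0.0915%. Lef1 was seen in 37.7% against 27.4% and 0.427%. Without drawing down, the shares were 94.1% for Ms4a4b, 56.8% for Nkg7, 57.7% for Klrd1 and 79.1% for Lef1, at median depths of 5637.5 UMIs in CD8 T cells and 5232.5 in B cells. In the tests on summed counts given below, Nkg7 and Klrd1 were called higher than in CD4 T cells. Ms4a4b was called only in barcodes up to 15000 UMIs, and Lef1 in neither. Against the Cxcr6 T cells described below, none of these 4 markers was called in all barcodes, and Lef1 alone in barcodes up to 15000 UMIs.

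Markers of other cells were looked for as well. Ncr1, the NK cell receptor NKp46, had a UMI in 0 of 622 members. Of the 621 drawn-down members, a count of 0 allows up to 0.483% with a UMI (3 counts of the total), which limits barcodes with a UMI and not cells that express the gene. Trdc, the constant gene of the γδ receptor, was seen in 0.322% of the drawn-down members, with both barcodes in KO 2, and Trdv4 and Il23r in 0. RNA of other cells was present in all of these populations. Gcg, the glucagon gene of α cells, had a UMI in 95.7% of CD8 T cells, 95.4% of CD4 T cells and 92.1% of B cells, and the immunoglobulin gene Igkc in 18.2% of CD8 and 21.6% of CD4 T cells against 92.5% of B cells. Igkc was seen in 24.2% of the CD8 T cells of WT 2 and 19.2% of those of KO 2, and in 0 of those of WT 1 and KO 3. A share at such a level in cells that should lack a gene is read as background here. The summed level of 16 endocrine markers, averaged over barcodes, was 160 UMIs per 10000 in WT 1, 1033 in WT 2, 1507 in KO 2 and 737 in KO 3, and of 12 B cell markers 1.83, 6.14, 5.60 and 2.38.

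**Figure D2:**
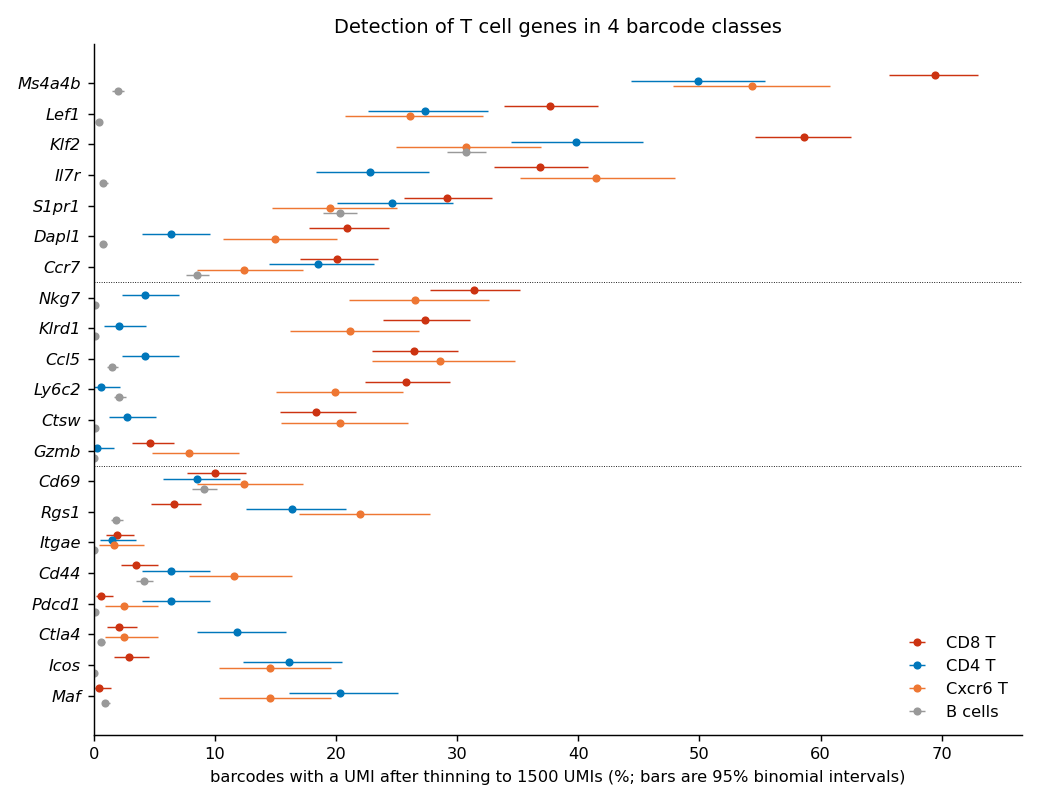
Percentage of barcodes with a UMI of each of 21 genes after drawing every barcode down to 1500 UMIs, in CD8 T, CD4 T, Cxcr6 T and B cells, with exact 95% binomial intervals for counting error. Nkg7, Klrd1, Ccl5 and Ly6c2 were frequent in CD8 and Cxcr6 T cells and rare in CD4 T and B cells, whereas the recirculation genes were shared with the CD4 T cells.

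The genes of naive and recirculating T cells were widely detected in the CD8 T cells. Klf2, the transcription factor that switches on the exit receptors, had a UMI in 58.6% of the drawn-down members and Il7r, the receptor for the survival cytokine IL-7, in 36.9%. Tcf7 was seen in 30.3%, S1pr1, the receptor for exit into lymph, in 29.1%, Dapl1 in 20.9% and Ccr7, the lymph node homing receptor, in 20.1%. B cells also express several of these genes, and in them the shares were 30.7% for Klf2 and 20.3% for S1pr1, but 0.793% for Il7r and 0.183% for Tcf7. These shares are weighted to KO 2, which holds 427 of the members. Tcf7 was seen in 52.9% of WT 1, 43.8% of WT 2, 23.4% of KO 2 and 46.7% of KO 3, and S1pr1 in 44.1%, 43.8%, 22.95% and 33.3%. Both were thus lowest in KO 2, and without it the pooled shares were 45.4% for Tcf7 and 42.8% for S1pr1.

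Memory or cytotoxic transcripts were also seen in part of the members, with the shares of 31.4% for Nkg7 and 27.4% for Klrd1 given above. Ccl5, a chemokine that memory CD8 T cells keep in store, was seen in 26.4% (23.5%, 35.2%, 24.1% and 20% in WT 1, WT 2, KO 2 and KO 3), with 4.26% in CD4 T cells and 1.52% in B cells. Ly6c2, a surface protein of memory CD8 T cells, was seen in 25.8%, and Ctsw, a protease of cytotoxic cells, in 18.4%. Transcripts of the killing machinery were seen in fewer. Gzmb was seen in 4.67% of the members with 29 barcodes (56 of 622 before drawing down), against 0.304% of CD4 T cells and 0 of 3279 B cells, Prf1 (perforin) in 4.35%, Gzma in 2.58% and Ifng in 0.322%. Of the 29 barcodes with Gzmb, 27 were in KO 2, and without that library the share was 1.03% (2 of 194). Klrg1, a marker of terminal effector cells, was seen in 0.161%, and S1pr5 in 0 of 622.

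Genes of tissue residence, inhibitory receptors and division were seen in few members. The rule leaves out barcodes with a Cxcr6 UMI, so low shares of residence genes are in part set by how the members were chosen. Cd69, which is also an early activation gene, was seen in 9.98% of the members against 8.51% of CD4 T cells and 9.12% of B cells, which also express it. Itgae (CD103) was seen in 1.93% and Zfp683 (Hobit) in 0 of the drawn-down members, with 1 barcode before drawing down. In the Cxcr6 T cells, the barcodes with CD3 and a Cxcr6 UMI, the shares were 12.4% for Cd69, 1.66% for Itgae and 0.415% for Zfp683. Of the inhibitory receptors, Ctla4 was seen in 2.09%, Pdcd1 (PD-1) in 0.644%, and Lag3 and Havcr2 (TIM-3) in 0.161% each. Tigit was seen in none, with 1 barcode before drawing down. Mki67, a gene of dividing cells, was seen in 0.805% of the members, with 5 barcodes.

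Transcripts of both CD8 chains were found. Over all members, 994 UMIs of Cd8a and 1899 of Cd8b1 were counted, and 59.5% of the members held both, 30.2% Cd8b1 alone and 10.3% Cd8a alone. The ratio of Cd8b1 to Cd8a UMIs was 2.52 in WT 1, 2.61 in WT 2, 1.67 in KO 2 and 2.05 in KO 3, with 2.33 in the 2 members of WT 3. Cells with the αα form of CD8 carry no Cd8b1, but at this depth an absent chain cannot be told from a missed one. The receptor β constant genes Trbc1 and Trbc2 had 1977 and 4697 UMIs, and since they are near-identical copies, how reads were divided between them is uncertain.

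Within the CD8 T cells, several memory transcripts were more frequent beside Ccl5. Among drawn-down members, 164 held a Ccl5 UMI and 457 did not. Ly6c2 was seen in 53.0% of the first and 16.0% of the second, Nkg7 in 47.6% and 25.6%, Klrd1 in 44.5% and 21.2%, and Ctsw in 32.9% and 13.1%. For some rarer genes the contrast was wider. Klrk1 (NKG2D) was seen in 12.8% and 0.438%, Klre1 in 11.6% and 0.656%, Cxcr3, a receptor for interferon-induced chemokines, in 8.54% and 0.875%, and Xcl1 in 9.15% and 1.75%. These contrasts rest mostly on WT 2 and KO 2. Klrk1 was seen in no drawn-down member of WT 1 or KO 3, and Xcl1 in KO 3 was at 0% with Ccl5 and 4.17% without. For other genes the contrast was narrower or absent, with Gzmb in 7.32% and 3.72%, Gzma in 3.66% and 2.19%, Zeb2 in 1.83% and 1.09% and Id2 in 8.54% and 9.85%.

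The naive genes divided differently. Dapl1 was seen in 12.2% of the barcodes with Ccl5 and 24.1% of those without, and Ccr7 in 14.0% and 22.3%, but S1pr1 was seen in 28.7% and 29.3%. Itgae was seen in 0 of 164 barcodes with Ccl5 and in 12 of 457 without. For Ly6c2 the order was the same in each library, at 37.5% against 7.69% in WT 1, 37.8% against 8.43% in WT 2, 59.2% against 18.2% in KO 2 and 66.7% against 20.8% in KO 3. WT 1 and KO 3 held only 8 and 6 barcodes with Ccl5, beside 45 in WT 2 and 103 in KO 2. Cells are not replicates, so these shares are a description, with no test.

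**Figure D3:**
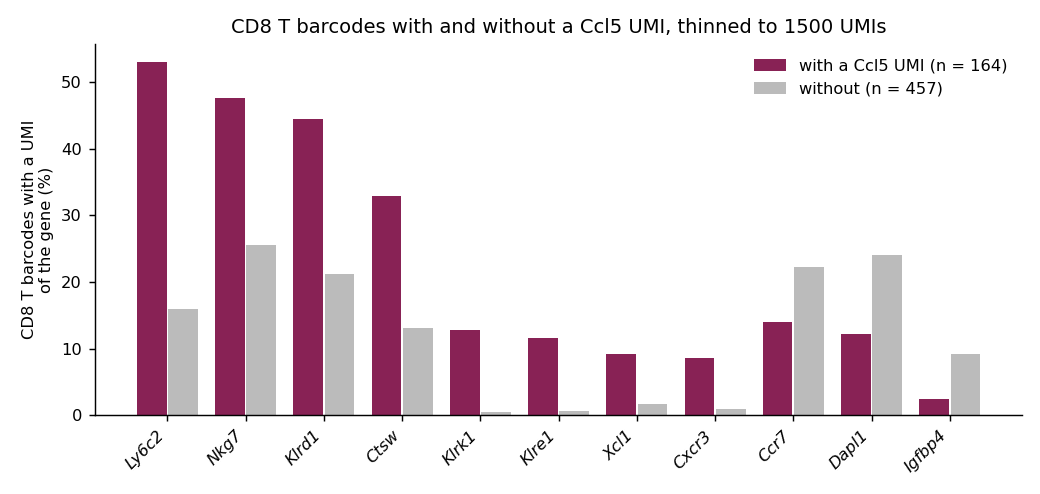
Percentage of CD8 T barcodes with a UMI of each gene, drawn down to 1500 UMIs, among the 164 barcodes with a Ccl5 UMI and the 457 without. Ly6c2, Nkg7 and Klrd1 were more frequent beside Ccl5, and Dapl1 and Ccr7 less frequent.

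CD8 and CD4 T cells of the same library were then compared, to ask which genes other than the co-receptors set them apart. The genes of the rule were left out of the test, and the 4 libraries with at least 5 barcodes of each type entered it (24, 102, 190 and 10 CD4 T cells in WT 1, WT 2, KO 2 and KO 3). UMIs were summed per library and type, and CPM are counts per 1e6 UMIs after scaling within the comparison. In the 10 CD4 T cells of KO 3, 1 UMI is about 20.1 CPM, so a 0 there says little. Of 5084 genes tested, 58 (1.14%) were called, 30 higher in CD8 T cells (0.59%) and 28 lower (0.551%), by edgeR's quasi-likelihood test with an adjusted p under 0.05. Among barcodes up to 15000 UMIs, 343 of 4212 genes were called (8.14%), 188 higher (4.46%) and 155 lower (3.68%), and 51 of the 58 genes were among them.

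Ly6c2 (GRCm38 chr15:75108158-75111970, minus strand) had the largest log2 difference in all barcodes. It stood at 109, 244, 554 and 519 CPM in the CD8 T cells of WT 1, WT 2, KO 2 and KO 3, and at 0, 1.07, 3.12 and 0 CPM in the CD4 T cells. No library overlapped, and the log2 difference was 7.56 (SE 0.36, adjusted p = 3.03e-06), and 7.73 in barcodes up to 15000 UMIs. Ly6c1, its neighbour and close copy, was lower in CD8 T cells, at 0, 4.06, 6.32 and 17.7 CPM against 27.5, 9.60, 54.6 and 141 CPM (log2 -2.98, SE 0.41, adjusted p = 0.00532). Since the 2 genes are so alike in sequence, how reads were divided between them is uncertain.

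Cytotoxic and memory genes were among the other higher genes. Klrd1 (chr6:129591782-129598775) was at 185, 325, 199 and 251 CPM in CD8 T cells and at 3.93, 2.13, 7.80 and 80.5 CPM in CD4 T cells (log2 4.99, SE 0.54, adjusted p = 0.00119). Nkg7 (chr7:43437073-43438249) was at 115, 257, 398 and 413 CPM against 23.6, 23.5, 26.5 and 0 CPM (log2 3.57, SE 0.34, adjusted p = 0.000550). Ccl5 (chr11:83525778-83530518) was at 714, 1479, 743 and 297 CPM against 153, 42.7, 67.1 and 0 CPM (log2 3.68, SE 0.46, adjusted p = 0.00292). Such non-overlap held for 8.24% of all genes tested, 4.8% higher and 3.44% lower in CD8 T cells. In barcodes up to 15000 UMIs the log2 differences were 4.59 for Klrd1, 3.24 for Nkg7 and 3.39 for Ccl5, all called. In all 3 genes every CD8 T value lay above every CD4 T value, although Ccl5 itself was lowest in the CD8 T cells of KO 3.

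Plac8, Cd7 and Ctsw were also higher, with log2 differences of 5.23, 4.12 and 3.59, and of 5.41, 3.57 and 3.34 in barcodes up to 15000 UMIs. Plac8 was at 121, 170, 419 and 276 CPM in CD8 T cells and at 23.6, 5.34, 3.12 and 0 CPM in CD4 T cells (adjusted p = 0.00136). It is no T cell gene alone, since 52.8% of the drawn-down B cells held a UMI of it. Ccr9, a gut homing receptor that naive CD8 T cells also carry, was higher by 3.36 on the log2 scale, and Runx3, the transcription factor that silences Cd4 in the CD8 lineage, by 1.75 (SE 0.28, adjusted p = 0.0149). Runx3 was at 125, 230, 131 and 163 CPM in CD8 T cells and at 58.9, 36.3, 48.4 and 60.4 CPM in CD4 T cells. The survival gene Bcl2 was higher by 1.11 (SE 0.20, adjusted p = 0.0283), with all 4 CD8 T values between 145 and 176 CPM and all CD4 T values between 66.2 and 80.5 CPM. In barcodes up to 15000 UMIs, Runx3 and Bcl2 were higher by 1.53 and 1.01 on the log2 scale, both called. The other genes among the 10 most raised were Gm43698, a long noncoding RNA, at 6.14, and Atp8b4 at 3.43.

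Promoters of 3 of these genes are shown, because RUNX factors take part in setting the CD8 lineage and Runx3 was itself among the higher genes. The 3 were picked from the higher genes whose promoter holds the RUNX core, so that they hold it is no result. The windows run from 250 bases before to 50 bases after the annotated start, written along the gene's strand from RefSeq on GRCm38.p6, and capitals mark the RUNX core TGTGGT or its reverse complement ACCACA.
Ly6c2, chr15:75111922-75112221, minus strand: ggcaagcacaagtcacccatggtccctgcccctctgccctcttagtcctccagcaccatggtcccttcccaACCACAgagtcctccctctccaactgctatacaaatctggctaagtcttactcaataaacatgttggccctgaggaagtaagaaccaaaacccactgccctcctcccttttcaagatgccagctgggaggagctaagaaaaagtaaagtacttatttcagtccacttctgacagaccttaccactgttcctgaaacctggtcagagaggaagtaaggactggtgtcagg
Plac8, chr5:100572156-100572455, minus strand: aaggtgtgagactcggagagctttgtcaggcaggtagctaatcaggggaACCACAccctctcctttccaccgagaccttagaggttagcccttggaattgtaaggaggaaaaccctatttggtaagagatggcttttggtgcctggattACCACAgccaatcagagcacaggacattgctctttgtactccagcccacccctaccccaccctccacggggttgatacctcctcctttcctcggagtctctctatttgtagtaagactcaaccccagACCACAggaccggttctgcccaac
Nkg7, chr7:43436888-43437187, plus strand: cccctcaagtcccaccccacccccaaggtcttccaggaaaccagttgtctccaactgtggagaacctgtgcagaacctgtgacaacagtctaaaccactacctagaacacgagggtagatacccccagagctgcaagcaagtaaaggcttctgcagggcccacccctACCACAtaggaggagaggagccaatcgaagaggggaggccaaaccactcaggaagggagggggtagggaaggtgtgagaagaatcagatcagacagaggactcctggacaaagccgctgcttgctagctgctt

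The match began 179 bases before the start in Ly6c2 and 83 bases before it in Nkg7, and Plac8 held 3 matches, at 201 and 101 bases before and 26 bases after the start. A second window of Ly6c2, not shown, put the same match 213 bases before its start. The end of neither Ly6c2 window was found in an annotated transcript of the gene, so its distances are less certain. Of the 30 higher genes, 21 had a promoter in the table and 8 of these (38.1%) held the core on either strand, against 14.1% of the 4097 tested genes with a promoter and 18.9% of all 27025 genes. Klrd1, Ccl5, Cd7, Ctsw, Ccr9 and Bcl2 were not among these 8. Of the 21 lower genes with a promoter, 4 (19.0%) held it. Among barcodes up to 15000 UMIs the shares were 16.7% of 138 higher and 15.5% of 110 lower genes, so the larger share did not carry over to the longer list. A match is a run of letters and not a shown binding site.

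The genes lower in CD8 T cells included genes of helper and regulatory CD4 T cells. Maf (chr8:115682942-115707794), a transcription factor of helper T cells, was at 5.85, 8.12, 5.94 and 0 CPM in CD8 T cells and at 122, 230, 160 and 0 CPM in CD4 T cells (log2 -4.68, SE 0.29, adjusted p = 7.61e-05). Tnfrsf4 (OX40), a costimulatory receptor of activated and regulatory cells, was at 1.95, 24.4, 8.55 and 3.53 CPM against 122, 223, 120 and 20.1 CPM (log2 -3.71, SE 0.33, adjusted p = 0.000443). Izumo1r (folate receptor 4), a marker of regulatory T cells, was at 5.85, 12.2, 20.1 and 7.07 CPM against 66.7, 134, 186 and 20.1 CPM (log2 -3.24, SE 0.28, adjusted p = 0.000395). In barcodes up to 15000 UMIs the log2 differences were -5.22 for Maf, -4.25 for Tnfrsf4 and -3.48 for Izumo1r, all called. Izumo1r was all but tied at its edge, with 20.1 CPM in the CD8 T cells of KO 2 and in the CD4 T cells of KO 3. That CD4 value rests on 1 UMI. Tnfrsf4 overlapped, with 24.4 CPM in the CD8 T cells of WT 2 and 20.1 CPM in the CD4 T cells of KO 3. Maf overlapped only through KO 3, where both types were at 0.

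**Figure D4:**
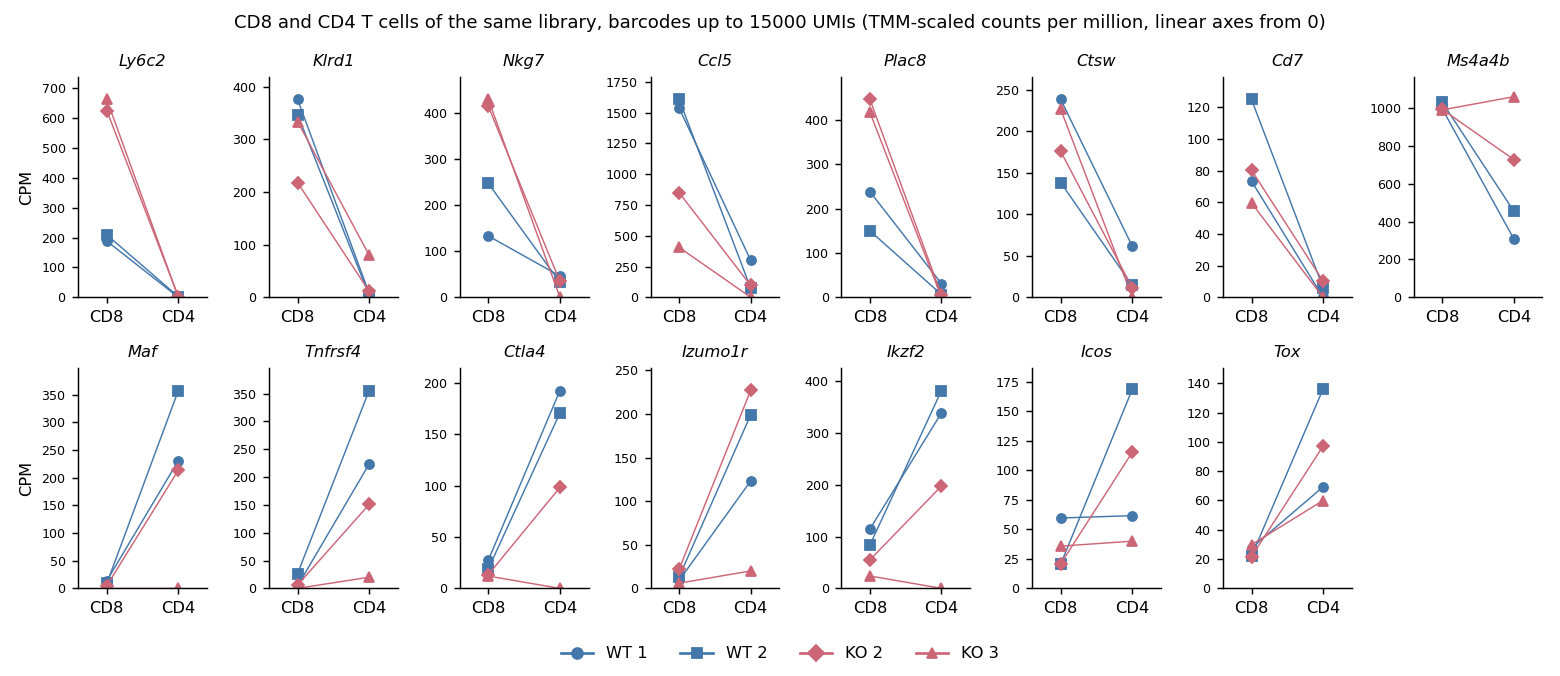
CPM of 15 genes in the CD8 T cells and CD4 T cells of the same 4 libraries, barcodes up to 15000 UMIs, with a line joining the values of each library. Ly6c2, Klrd1, Nkg7 and Ccl5 were higher in the CD8 T cells of all 4 libraries, and Maf was higher in the CD4 T cells of the 3 libraries in which it was detected.

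By list, 4 of the 10 genes of the inhibitory receptor list were tested, and all 4 were lower in CD8 T cells, namely Pdcd1, Ctla4, Cd200 and Tox. Their median log2 difference was -2.13 beside 0.0094 over all genes tested. A gene entered the test with a UMI in over 15% of either type. One that is rare in CD8 T cells thus entered only through the CD4 T cells, so the direction of list members is in part set by this filter. Pdcd1, Ctla4 and Cd200 had a UMI in 0.644%, 2.09% and 1.77% of the drawn-down CD8 T cells. Tox was at 15.6, 24.4, 23.8 and 24.7 CPM against 51.0, 88.6, 81.1 and 60.4 CPM (log2 -1.74, SE 0.24, adjusted p = 0.00532). Of 11 tested genes of the CD4 lineage and regulatory T cell list, 4 were lower, Tnfrsf4, Cd40lg, Izumo1r and Tbc1d4, and without the barcodes above 15000 UMIs 9 of 10 were lower. Of 12 tested memory and cytotoxic genes, 5 were higher (Ly6c2, Klrd1, Ccl5, Ctsw and Nkg7).

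Of 16 tested naive and recirculation genes, Ccr9 alone was called in all barcodes, with all 16 log2 differences above 0 and a median of 0.47. Without the barcodes above 15000 UMIs, 6 of 15 were higher, among them Il7r, Klf2, Foxp1 and Dapl1. Klf2 was then at 1082, 1016, 626 and 769 CPM in CD8 T cells against 708, 416, 451 and 780 CPM in CD4 T cells (log2 0.67, SE 0.14, adjusted p = 0.000306), higher in the CD8 T cells of 3 of the 4 libraries. In the same barcodes, 4 memory genes were lower in CD8 T cells, Ly6a, Cd44, Id2 and Itga4. None of the 24 genes of the T cell receptor and its signalling was called in all barcodes (821 of the 5084 genes tested had an unadjusted p under 0.05, and DESeq2 called 85 genes). Without the barcodes above 15000 UMIs, 2 were higher, among them Thy1, and 7 were lower, among them Cd28 (log2 -1.23, SE 0.20, adjusted p = 3.13e-06) and Trac (log2 -0.72, SE 0.16, adjusted p = 0.000826).

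Gcg and Ttr, which T cells do not make, were lower in CD8 T cells, and Gcg was at 495, 2228, 10846 and 1413 CPM against 6206, 7317, 22956 and 27581 CPM (log2 -2.67, SE 0.50, adjusted p = 0.0318), with a log2 difference of -1.32 in barcodes up to 15000 UMIs. The part of this difference in the other results was not tested, and with the endocrine markers left out 64 genes were called in place of 58. The count of calls depended on the libraries, with 104 without WT 1, 6 without WT 2, 16 without KO 2 and 28 without KO 3, and with 6 in the WT and 23 in the KO libraries alone.

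The CD8 T cells were next compared with the Cxcr6 T cells, the barcodes with CD3, a Cxcr6 UMI and no Cd79a, of which 129 of 241 met the rest of the CD8 T rule. Cxcr6 is a chemokine receptor of tissue-dwelling and innate-like T cells. Of 5178 genes tested in the same 4 libraries, 7 were called (0.135%), all lower in the CD8 T cells of the rule. In barcodes up to 15000 UMIs, 67 of 4468 were called (1.5%), 22 higher (0.492%) and 45 lower (1.01%), with all 7 among them.

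Krt83 (chr15:101485130-101491512) was at 0, 0, 0.366 and 0 CPM in CD8 T cells and at 72.5, 76.5, 9.85 and 10.1 CPM in Cxcr6 T cells (log2 -6.22, SE 0.61, adjusted p = 0.00170). Ccr2, a receptor for migration into inflamed tissue, was at 2.01, 2.61, 1.47 and 3.58 CPM against 62.2, 91.3, 25.9 and 20.1 CPM (log2 -4.35, SE 0.40, adjusted p = 0.00170). Tcrg-C1, a constant gene of the γ chain of the γδ receptor, was at 2.01, 2.61, 2.93 and 14.3 CPM against 41.4, 113, 24.6 and 161 CPM (log2 -3.85, SE 0.39, adjusted p = 0.00170). In barcodes up to 15000 UMIs the log2 differences were -6.20 for Krt83, -4.64 for Ccr2 and -3.97 for Tcrg-C1. In none of these 3 genes did any library of one type overlap the other, as held for 2.18% of all genes tested, 1.16% lower and 1.02% higher. The other called genes were S100a4, Maf, Lmo4 and Tmem176a, with log2 differences of -4.18, -3.61, -2.23 and -1.95.

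Recirculation genes were on the other side. All 15 tested naive and recirculation genes had a log2 difference above 0, with a median of 0.79 beside 0.0099 over all genes tested, but none was called in all barcodes (185 of the 5178 genes tested had an unadjusted p under 0.05, and DESeq2 called 9 genes). Without the barcodes above 15000 UMIs, 6 of 15 were higher, among them Klf2, S1pr1, Ccr7, Lef1 and Actn1. Klf2 was at 1092, 1026, 633 and 766 CPM in CD8 T cells and at 580, 224, 506 and 266 CPM in Cxcr6 T cells (log2 1.17, SE 0.19, adjusted p = 4.85e-05). Of 13 memory and cytotoxic genes, 3 were lower, Id2, Ly6a and Cd44, and none was higher. The called count was 3 without WT 2 and 15 without KO 2.

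The genotypes were compared last, to ask whether CD8 T cells differed between islets of WT and KO mice. Ywhaz, the targeted gene (chr15:36770770-36796929, minus strand), was at 458, 241, 213 and 224 CPM in the CD8 T cells of WT 1, WT 2, KO 2 and KO 3 (log2 -0.68, SE 0.37, adjusted p = 0.989). With those above 15000 UMIs left out it was at 245, 238, 207 and 178 CPM (log2 -0.30, SE 0.24, adjusted p = 0.725). In all barcodes the difference was -0.18 without WT 1 and -1.03 without WT 2, neither called. Both KO libraries were below both WT libraries, which 16.6% of all genes tested also were. In the insulin-rich barcodes, where Cre acts, the mean Ywhaz level was 1.18, 1.53 and 1.62 UMIs per 10000 in the WT libraries and 0.278, 0.464 and 0.254 in the KO libraries. The study reports that it detected a reduction of Ywhaz in β cells only. In libraries with at least 5 barcodes of a type, cells in which Cre is not meant to act also had lower levels in KO here. B cells were at 3.12, 2.39 and 2.63 UMIs per 10000 in the WT and 1.41, 1.57 and 1.67 in the KO libraries. The CD4 T cells of WT 1, WT 2, KO 2 and KO 3 were at 3.03, 3.02, 2.14 and 1.85, and the Cxcr6 T cells at 2.66, 2.78, 1.92 and 2.05. With fewer than 5 barcodes, the CD4 T cells of KO 1 were at 5.19 and the CD8 T cells of WT 3 and KO 1 at 1.44 and 1.61. The Cxcr6 T cells of WT 3 and KO 1 were at 3.88 and 2.57. Of these, the CD4 value of KO 1 and the CD8 value of WT 3 went against the direction. The levels in other cells and in these small libraries were not tested. The assay reads the 3′ end of transcripts and does not see the deleted exon, so it is a check of the transcript's level and not of the allele.

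The other 14-3-3 genes did not pass the test either. The levels averaged over CD8 T barcodes in WT 1, WT 2, KO 2 and KO 3 were 1.75, 1.72, 1.88 and 1.42 UMIs per 10000 for Ywhae, 1.32, 1.39, 1.61 and 1.58 for Ywhaq, and 1.22, 1.58, 1.42 and 1.21 for Ywhab. Of the 6 tested genes of the family, 5 had a log2 difference below 0, with a median of -0.24 beside 0.0083 over all genes tested, and 4 of 6 with a median of -0.05 without the deep barcodes.

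In all barcodes, 0 of 4788 genes were called between the genotypes (0%) by edgeR, with 150 at an unadjusted p under 0.05, and DESeq2 called 0. Values that did not overlap between the 2 libraries of each genotype were common, at 33.9% of all genes tested, and at 39.8% among barcodes up to 15000 UMIs, where 20.7% were lower in KO. Without the barcodes above 15000 UMIs, 2 of 4414 genes were called (0.0453%), Ly6c2 and Ly6a, both higher in KO. Without WT 1 the count in all barcodes was 25, and without WT 2 it was 114.

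Ly6c2, the gene that also set CD8 apart from CD4 T cells, was at 179, 200, 603 and 637 CPM in WT 1, WT 2, KO 2 and KO 3 without the deep barcodes (log2 1.69, SE 0.23, adjusted p = 0.00803), and at 111, 224, 545 and 506 CPM with them (log2 1.64, SE 0.38, adjusted p = 0.989). Ly6a (Sca-1, chr15:74994877-74998031), an interferon-inducible surface protein of the same family, was at 56.9, 67.6, 356 and 161 CPM without them (log2 2.12, SE 0.35, adjusted p = 0.0293) and at 51.7, 72.3, 348 and 107 CPM with them (log2 1.91, SE 0.54, adjusted p = 0.989). Both KO libraries lay above both WT libraries in each case, and 17.3% of all genes tested did so in all barcodes and 19.1% without the deep ones. The share of barcodes with a Ly6c2 UMI was 14.7% and 18.8% in the WT libraries and 28.1% and 30.0% in the KO libraries. In the insulin-rich barcodes, Ly6a averaged 0.0151, 0.0533, 0.882 and 0.0235 UMIs per 10000 in WT 1, WT 2, KO 2 and KO 3. All CD8 T barcodes averaged 0.572, 0.612, 3.00 and 1.58 for Ly6a in the same order. Ly6c2 was at 0.000392, 0.00386, 0.0308 and 0.00134 in insulin-rich and 1.55, 1.90, 4.61 and 4.06 in CD8 T barcodes. The part of RNA from other cells in the calls of Ly6a and Ly6c2 was not tested.

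Plac8, Nkg7 and Ccl5 had large differences that did not pass the test. Plac8 was at 123, 157, 412 and 268 CPM (log2 1.29, SE 0.35, adjusted p = 0.989), and Nkg7 at 117, 237, 392 and 403 CPM (log2 1.15, SE 0.38, adjusted p = 0.989). Without the deep barcodes the differences were 1.22 for Plac8 (adjusted p = 0.164) and 1.09 for Nkg7 (adjusted p = 0.354). In the insulin-rich barcodes, Plac8 averaged 0.0168, 0.0756, 0.650 and 0.0170 UMIs per 10000 in WT 1, WT 2, KO 2 and KO 3. The part of RNA from other cells in the Plac8 difference was not tested. Ccl5 was at 728, 1363, 732 and 289 CPM with a log2 difference of -1.02 (SE 0.47, adjusted p = 0.989), and at 1465, 1540, 820 and 390 CPM without the deep barcodes (log2 -1.26, SE 0.27, adjusted p = 0.164). Of the 11 tested memory and cytotoxic genes, which include Nkg7 and Ccl5, 6 had a difference above 0 and 5 below 0.

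**Figure D5:**
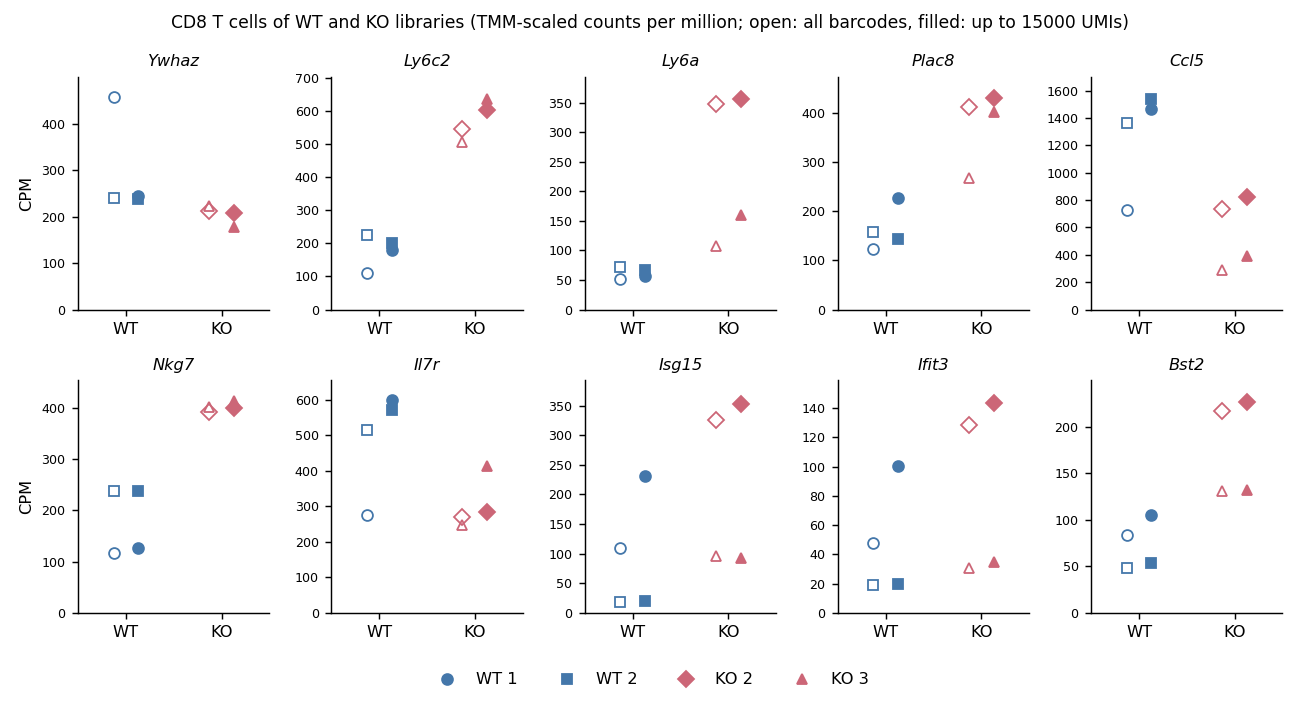
CPM of 10 genes in the CD8 T cells of the 2 WT and 2 KO libraries with at least 5 members, as open symbols for all barcodes and filled symbols for barcodes up to 15000 UMIs. Ly6c2 and Ly6a were higher in both KO libraries, Isg15 and Ifit3 overlapped between the genotypes, and Ywhaz of WT 1 fell from 458 to 245 CPM when the deep barcodes were left out.

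The summed level of the interferon response genes was highest in KO 2, with no gene called between genotypes. All 14 tested genes of the list had a log2 difference above 0, with a median of 1.16 beside 0.0083 over all genes tested, and 0.98 without the deep barcodes. Isg15, a ubiquitin-like protein induced by interferon, was at 109, 17.5, 326 and 96.3 CPM in WT 1, WT 2, KO 2 and KO 3 (log2 1.85, SE 0.80, adjusted p = 0.989), and Ifit3, an antiviral protein, at 47.7, 18.7, 129 and 31.0 CPM (log2 1.46, SE 0.66, adjusted p = 0.989). In both, KO 2 was highest, WT 2 lowest, and KO 3 lay below WT 1. Without the deep barcodes the log2 differences were 1.30 for Isg15 and 1.21 for Ifit3, neither called. Without KO 2 the difference of Ifit3 was -0.13. KO 2 was highest in other cells too: the list summed to 18.9, 8.77, 25.3 and 13.5 UMIs per 10000 in CD8 T cells, to 18.2, 19.0, 39.2 and 20.2 in CD4 T cells and to 14.2, 12.2, 20.7 and 8.21 in B cells. In Cxcr6 T cells, KO 2 and WT 1 were nearly equal, at 21.2, 16.1, 21.7 and 12.8 in the same order. Insulin-rich barcodes were at 1.16, 1.38, 5.97 and 1.24.

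The promoters of Isg15 and Ifit3 are shown because both genes were highest in KO 2 and lowest in WT 2, with capitals on the interferon-response pattern of 2 copies of GAAA with 2 free bases between them, or TTTC likewise on the other strand, in RefSeq windows of GRCm38.p6.
Isg15, chr4:156200769-156201068, minus strand: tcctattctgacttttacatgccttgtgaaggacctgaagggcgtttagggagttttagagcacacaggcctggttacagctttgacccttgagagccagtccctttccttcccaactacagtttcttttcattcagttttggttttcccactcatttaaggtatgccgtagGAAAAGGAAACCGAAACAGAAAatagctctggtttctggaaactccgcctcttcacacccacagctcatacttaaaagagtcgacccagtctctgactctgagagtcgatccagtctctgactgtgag
Ifit3, chr19:34583279-34583578, plus strand: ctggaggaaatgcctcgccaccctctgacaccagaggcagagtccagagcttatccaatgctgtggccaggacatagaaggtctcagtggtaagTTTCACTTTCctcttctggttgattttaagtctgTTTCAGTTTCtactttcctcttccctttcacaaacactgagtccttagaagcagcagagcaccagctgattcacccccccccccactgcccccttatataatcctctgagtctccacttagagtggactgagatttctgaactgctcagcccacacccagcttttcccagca

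The 3 matches in Isg15 overlapped each other and began 78, 72 and 66 bases before the start, and those in Ifit3 began 156 and 122 bases before it. Of the 11 interferon response genes with a promoter in the table, 8 (72.7%) held the pattern on either strand, against 3.99% of all 27025 genes. The share was 4.59% of the 4097 genes with a promoter that were tested between CD8 and CD4 T cells. The list was put together from genes of the interferon response, so its high share follows from that choice and is no result of these libraries. A match says nothing of whether a factor was bound in these cells.

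Other lists also went one way without a call. Of 15 naive and recirculation genes, 11 had a difference below 0 (median -0.22) and 14 without the deep barcodes (median -0.50), with Il7r at 276, 514, 269 and 248 CPM (log2 -0.61, SE 0.36, adjusted p = 0.989), and at a log2 difference of -0.79 without the deep barcodes (adjusted p = 0.419). Of 8 heat shock genes, 7 were above 0 (median 0.53). The endocrine markers, RNA that CD8 T cells do not make, were above 0 in 11 of 14 cases (median 0.42) and in 14 of 14 without the deep barcodes (median 0.80). Both tested acinar markers were above 0 as well, and the part of this RNA in the genotype differences was not tested. The T cell receptor genes changed sides, with 21 of 24 above 0 in all barcodes and 6 of 24 without the deep ones.

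Shares of barcodes were compared between genotypes for 12 genes in the libraries with at least 5 members, where 2 against 2 cannot reach 0.05 and the smallest exact permutation p is 0.333. Ccl5 was in 29.3% ± 8.22 (SD, n = 2) of the WT and 22.1% ± 2.91 (SD, n = 2) of the KO barcodes (exact permutation p = 0.667, 0.889 adjusted over the 12 genes), a difference of -7.28 percentage points. That value rests on 1 draw of 1500 UMIs. The expected share over all such draws was 33.7% in WT and 20.7% in KO, a difference of -13.1 percentage points, and both KO libraries were then below both WT libraries, as they were with no drawing down (42.5% and 33.5%) and at 1000 UMIs (30.3% and 19.1%). In each of these the exact permutation p was 0.333, the smallest possible. On the 1 draw the difference was -1.47 percentage points without WT 2 and -13.1 without WT 1.

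Finally, whether a genotype difference differed between CD8 and CD4 T cells was tested as an interaction in the same 4 libraries. In all barcodes 0 of 5915 genes were called (0%), with 49 at an unadjusted p under 0.05 and 1 called by DESeq2. Without the barcodes above 15000 UMIs, 4 of 4832 were called (0.0828%), 1 with a higher (0.0207%) and 3 with a lower (0.0621%) difference in CD8 T cells, and 3 of the 4 are genes that islet cells or macrophages express. The 16 tested naive and recirculation genes all had an interaction below 0 (median log2 -1.05 beside 0.0015 over all genes tested), that is a lower KO against WT difference in CD8 than in CD4 T cells, with none called. Without WT 2 the count in all barcodes was 95, and without WT 1 it was 4.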

How the data were processed

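Islets of 3 WT and 3 KO samples were profiled by droplet 3′ single-cell RNA-seq. The authors deposited, per sample, a matrix of UMI counts per gene and barcode, not normalized. The submitters' processing notes name Cell Ranger 6.0.2, Seurat and mm10. Barcodes were chosen by the stated rule on the deposited counts. No doublet caller was used in the main analysis, and Scrublet (scanpy 1.11.5) marked 29 members in an alternative. The members and the gene lists were chosen with earlier results of these data known.

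For each library, the UMIs of all barcodes of a type were added up in libraries with at least 5 barcodes, and genes with a UMI in over 15% of the barcodes of either group were tested with edgeR 4.0.16 (R 4.3.3; quasi-likelihood test, TMM scaling, Benjamini-Hochberg adjustment), leaving out the genes of the rule. A gene was called at an adjusted p under 0.05 and a log2 difference over 0.1. CD8 T cells were compared with CD4 T and Cxcr6 T cells with the library as a term, and WT with KO without one. DESeq2 1.42.0, other filters and scalings, and leaving out each library were alternatives. The limits on deep barcodes, the expected share over all draws, the pooled shares without a library and the CD8 to CD4 share in all libraries were added after the data were seen. Shares used barcodes drawn down to 1500 UMIs (numpy 2.4.6) and exact permutation tests over libraries (scipy 1.17.1). The fits were tested on simulated data. Genes were named as the 14-3-3 genes, the list members of highest CPM and up to 10 called genes of largest difference per direction, leaving out insulin and immunoglobulin genes. Gene coordinates are of GRCm38 (GENCODE), matched by gene ID. Some genes are not reported here.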

Additional observations from a re-analysis of the deposited data

Results flagged for a closer look

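These 4 genes had a WT to KO difference that itself differed between CD8 and CD4 T cells by edgeR's interaction test, among barcodes up to 15000 UMIs, a limit chosen after the data were seen, and none was called in all barcodes. For Gcg the CD8 minus CD4 difference in log2 fold change was -2 (SE 0.15, adjusted p = 5.66e-35), with 933, 2361, 5650 and 2163 CPM in the CD8 T cells of WT 1, WT 2, KO 2 and KO 3 and 1378, 2567, 12321 and 27026 CPM in the CD4 T cells. For Ttr it was -1.79 (SE 0.40, adjusted p = 0.0102), with 32.2, 125, 259 and 108 CPM in CD8 T cells and 31.0, 139, 563 and 1480 CPM in CD4 T cells. For Apoe it was 4.72 (SE 0.53, adjusted p = 7.27e-16), with 13.8, 17.6, 406 and 12.0 CPM in CD8 T cells and 31.0, 233, 154 and 19.7 CPM in CD4 T cells, so that KO 2 alone was high among the CD8 values. For Ms4a4b it was -1.10 (SE 0.25, adjusted p = 0.0102), with CD8 T values between 994 and 1026 CPM in all 4 libraries and CD4 T values of 310, 451, 730 and 1046 CPM. For Gcg, Ttr and Apoe the CD8 to CD4 contrast differed widely between the KO libraries. Gcg was at 5650 against 12321 CPM in KO 2 but at 2163 against 27026 CPM in KO 3. The CD4 T cells of KO 3 were 10 barcodes. The SE and p-values of Gcg, Ttr and Apoe therefore do not measure their spread between libraries. Those of Ms4a4b rest largely on a variance that edgeR shares over genes, with WT 1, WT 2, KO 2 and KO 3 as the only libraries. They are no firm measure of its spread between libraries either.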

How the results depend on the processing

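Counts of called genes depended on the processing, and the cause was not tested. In the order WT against KO, CD8 against CD4, CD8 against Cxcr6 and the interaction, the counts of 0, 58, 7 and 0 became 185, 519, 85 and 12 with no filter on low counts, 9, 134, 35 and 4 with libraries of at least 1 barcode, 3, 249, 11 and 11 without barcodes with B cell, macrophage or endothelial UMIs, 2, 343, 67 and 4 without barcodes above 15000 UMIs, and 3, 347, 64 and 2 with the endocrine markers left out as well. Drawing barcodes down to 1500 UMIs gave 0, 187, 23 and 2, and insulin under 5% of UMIs gave 0, 13, 0 and 96. With filterByExpr 4 genes were called against Cxcr6 T cells, and DESeq2 called 1 interaction. Leaving out 1 library at a time gave 0 to 114, 6 to 104, 3 to 15 and 0 to 95, and the CD4 comparison called 6 genes in WT libraries alone and 23 in KO libraries alone. The difference in CD8 T share ranged from -1.09 to 4.01 percentage points, with -1.09 without KO 2. Ifit3 between genotypes ranged from -0.13 (without KO 2) to 2.22 (without WT 1), and Lef1 against CD4 T cells from -0.00768 (without WT 2) to 0.79 (without KO 3), with -0.0714 in KO libraries alone. Of 499 alternative values for 27 named genes in the CD4 comparison, 408 kept direction and side of the threshold, as did 89 of 108 against Cxcr6 T cells and 168 of 195 between genotypes. Depth limits rare transcripts and the libraries with 10 or fewer CD4 T cells.

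For equal replicate numbers, the correlations of deviations from the genotype mean were -0.099, 0.068 and -0.069. KO 1 and WT 3, with 1 and 2 members, entered the first and the last of these, and also the genotype means. These correlations therefore cannot decide whether the replicate numbers pair the samples. The libraries with at least 5 members share only number 2, so the replicate block was fitted with libraries of at least 1 member, where it called 23 genes between genotypes.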
